A study of Mus musculus with 2 samples.

Results

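The 10 genes described here encode leukocyte integrins and the vascular and leukocyte adhesion molecules that they meet: Itgam, Itgax, Itgal, Itgb2, Itga4, Icam1, Vcam1, Sele, Selp and Selplg. They were taken by name out of 27962 gene names on the array, with earlier results of these data known. Of them, 9 carried their current symbol on the array, and Selplg was found through its accession under the older name Selpl. Together they had 23 probes. The arrays were hybridized with liver RNA of male apoE-KO mice on the C57BL/6 strain, which lack apolipoprotein E and have high plasma Chol already on chow. At 10 weeks of age they received normal chow or that chow with 1.25% Chol added (high-Chol diet) for 1 week, and 3 independent experiments were done on each diet. All 6 arrays therefore came from apoE-KO mice, no array came from mice with an intact Apoe gene, and the number of mice behind an array is not given in the sources used here. The study asked how the diet changes metabolism in these livers.

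Leukocytes leave the blood in steps. Selectins on endothelium (Sele, Selp) catch the glycoprotein Selplg on the leukocyte and slow the cell, and integrins then hold it in place. Itgb2 is the β chain shared by the leukocyte integrins, and pairs with the α chains Itgal (LFA-1), Itgam (Mac-1, abundant on monocytes and neutrophils) or Itgax (CD11c, known from dendritic cells and from lipid-laden monocytes and macrophages). LFA-1 and Mac-1 bind Icam1, whereas the α chain Itga4 pairs with Itgb1 or Itgb7 and binds Vcam1. In the liver, Kupffer cells and passing leukocytes carry these integrins, and the endothelium lining the sinusoids carries Icam1 and Vcam1.

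Each value below is the log2 of the background-subtracted spot intensity minus that of the 75th percentile of the same array, so that 0 is the signal of the spot at that percentile. A probe was well above background when the extraction software said so, and a gene was tested when its probe met this on all arrays of at least 1 diet. The 6 arrays lay on 2 slides. Slide 1 held the 3 normal chow arrays and high-Chol array 1, and slide 2 held high-Chol arrays 2 and 3. The 75th percentile was 271 to 373 intensity units on slide 1 and 762 and 799 on slide 2, and 50.5 to 67.2% of the spots were well above background. Apoe gave 2.93 ± 1.13 (SD, n = 3) on normal chow, against 3.32 ± 0.22 on the high-Chol diet (adjusted p = 0.671 from limma), and its probe does not compare the knockout with an intact gene. Livers were measured in bulk, and fewer cells of a type and less RNA per cell cannot be told apart.

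Probes in the coding sequence of 4 of the genes are shown because their signals are described below beside a different probe of the same gene, and they show which stretch of each transcript was read. They are given in lower case, 5′ to 3′, as designed for the array, with positions in mm7, the build named in the file headers.
Icam1, chr9:20904404-20904463, plus strand: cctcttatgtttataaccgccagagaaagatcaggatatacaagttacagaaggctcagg
Vcam1, chr3:115900948-115901007, minus strand: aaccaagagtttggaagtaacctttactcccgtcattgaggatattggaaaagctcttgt
Selp, chr1:164104808-164104867, plus strand: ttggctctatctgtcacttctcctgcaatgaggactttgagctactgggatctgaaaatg
Selplg, chr5:113040975-113041034, minus strand: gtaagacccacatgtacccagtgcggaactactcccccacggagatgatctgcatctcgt

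After 1 week of the high-Chol diet, signals of 6 of the 8 adhesion genes that could be tested rose: Itgax by 3.27 on the log2 scale, Icam1 by 1.60, Vcam1 by 1.53, Selplg by 1.27, Itgb2 by 1.23 and Itgal by 1.13. Itga4 and Selp did not pass the test, at differences of 1.09 and 0.73. Itgam and Sele were not tested, since no probe of either passed the filter. Over all 16728 genes tested, limma called 2.69% higher on the high-Chol diet at an adjusted p under 0.05, and the median difference of all genes was -0.02, beside 1.25 over the 8 adhesion genes. Itgax and Itga4 entered the test through the high-Chol arrays, being well above background on 2 of 3 normal chow arrays. Among the other 6, which were well above background on all 6 arrays, 5 were called. The high-Chol arrays lay above the normal chow arrays without overlap for each of the 8 genes, which was so for 11.9% of the genes that had 6 values. With 3 arrays against 3, the exact two-sided permutation test gave its smallest possible p of 0.1 for each of these 8 genes. When slide was fitted as a block, only high-Chol array 1 was compared with normal chow. The differences of the 8 genes then ran from 0.23 to 2.75, limma called 0 of them (adjusted p 0.0823 to 0.756, with 7 at an unadjusted p under 0.05, beside 5.65% of all genes that were higher at such a p) and 0.0658% of all genes as higher.

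**Figure D1:**
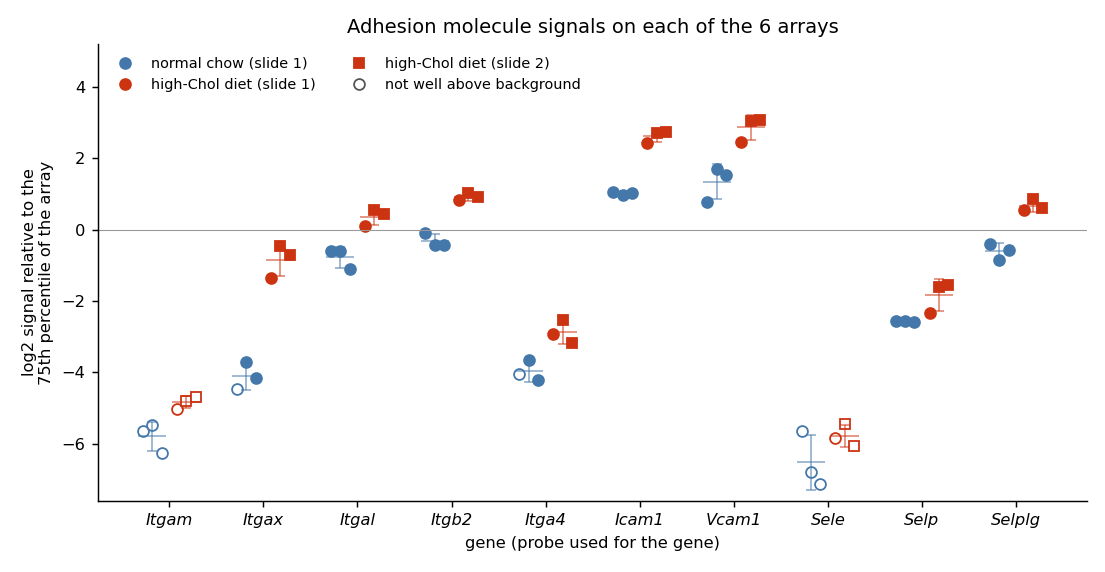
Log2 signal relative to the 75th percentile of the array (vertical axis) for the probe used for each gene, with 1 point per array. Bars are the mean and SD of 3 arrays, squares are the 2 high-Chol arrays of slide 2, and open points were not well above background. High-Chol points sit above normal chow points for every gene except Sele, and all points of Itgam and Sele are open.

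Among the integrin chains, Itgb2, the β chain common to LFA-1, Mac-1 and the CD11c integrin, gave -0.10, -0.44 and -0.42 on normal chow arrays 1 to 3 and 0.82, 1.02 and 0.90 on high-Chol arrays 1 to 3. Its single probe (chr10:77219821-77219880) was well above background on every array, and the high-Chol values lay close together on both slides, above all normal chow values. The difference was 1.23 (standard error 0.16, adjusted p = 0.0132 from limma), or 2.35-fold. High-Chol array 1, on the slide of the normal chow arrays, was 1.14 above their mean.

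Itgax, the α chain known as CD11c, gave -4.47, -3.70 and -4.17 on normal chow, against -1.36, -0.46 and -0.72 on the high-Chol diet with its brighter probe (chr7:124247096-124247155). The normal chow signals were near background, at 12.2 to 21.4 intensity units, and array 1 was not well above it. On the high-Chol arrays the same probe read 145, 580 and 462 units, and the diets stood far apart. The difference was 3.27, with a standard error of 0.29 and an adjusted p of 0.00601 from limma. Its size rests on normal chow signals near background, and with the normexp background it was 0.48, below those of Icam1 (1.55) and Vcam1 (1.56). Another probe named Itgax (chr7:124230396-124230455) gave -3.46, -3.21 and -3.29 on normal chow, against -3.69, -2.75 and -2.71 on the high-Chol diet. There high-Chol array 1 was the lowest of all 6 arrays, the diets overlapped, and the difference was 0.27 (standard error 0.28, adjusted p = 0.594 from limma on every probe). The probes thus differed by 3.00 in their log2 difference, and which transcripts the dimmer one reads was not tested.

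Itgal, the α chain of LFA-1, gave -0.60, -0.61 and -1.11 on normal chow, against 0.10, 0.55 and 0.43 on the high-Chol diet with its brighter probe (chr7:123431402-123431461). The lowest high-Chol array, the 1 on slide 1, was above the highest normal chow array. The difference was 1.13 (standard error 0.21, adjusted p = 0.0402 from limma), close to the threshold. A dimmer probe (chr7:123430204-123430263) also separated the diets, with a difference of 0.47 that was not called (standard error 0.17, adjusted p = 0.205 from limma on every probe).

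Itga4, the α chain that binds Vcam1, had 6 probes, of which 2 passed the filter. The brighter (chr2:79174249-79174308) gave -4.05, -3.65 and -4.22 on normal chow, against -2.93, -2.54 and -3.18 on the high-Chol diet. The diets did not overlap, and the difference of 1.09 (standard error 0.23) missed the threshold (adjusted p = 0.0605 from limma). With the other probe (chr2:79136504-79136563), high-Chol array 1 was level with normal chow at -4.47 and arrays 2 and 3 were at -2.85 and -2.88, so that the difference of 1.27 (standard error 0.42, adjusted p = 0.176) lay almost wholly on slide 2. The remaining 4 probes were well above background on 0 or 1 of the 6 arrays.

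Itgam, the α chain of Mac-1, had no probe that passed the filter. Its probe at chr7:124213977-124214037 was not well above background on any array, with 4.28 to 6.24 intensity units on normal chow, against 11.5 to 29.5 on the high-Chol diet. The second, at chr7:124214519-124214578, read 6.65, 4.09 and 2.02 units on normal chow, against 13.3, 37.0 and 27.7 on the high-Chol diet, and was well above background on high-Chol arrays 1 and 3 and on no normal chow array. Both readings were higher on the high-Chol arrays, but the bound set by the dimmest measurable probes gives no fold for either.

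Icam1, the endothelial ligand of LFA-1 and Mac-1, was measured with 10 spots per array for its brighter probe (chr9:20905300-20905359). The probe gave 1.07, 0.98 and 1.02 on normal chow, against 2.41, 2.71 and 2.72 on the high-Chol diet. Normal chow arrays differed by less than 0.1 among themselves, and every high-Chol array stood over 1 unit above them. The difference was 1.60 (standard error 0.15, adjusted p = 0.00627 from limma), or 3.02-fold. Within an array the log2 signals of the spots had an SD of 0.04 to 0.10, which is the technical spread on 1 array and not that between livers. The coding probe printed above gave -1.67, -2.45 and -2.11 on normal chow, against -0.40, -0.66 and -0.74 on the high-Chol diet, again without overlap. Its difference was 1.48 (standard error 0.23, adjusted p = 0.0239 from limma on every probe), which differed from that of the brighter probe by less than its standard error.

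Vcam1, the endothelial ligand of Itga4 integrins, gave 0.78, 1.70 and 1.54 on normal chow, against 2.46, 3.05 and 3.08 on the high-Chol diet with its brightest probe (chr3:115885211-115885270). Normal chow array 1 was low and widened the SD on normal chow to 0.49, but all high-Chol arrays lay above all normal chow arrays. The difference was 1.53, with a standard error of 0.29 and an adjusted p of 0.0448 from limma. It was just inside the threshold, although it was about as large as that of Icam1. The coding probe printed above gave -3.48, -2.74 and -2.40 on normal chow, with array 1 not well above background, and -1.22, -0.45 and -0.56 on the high-Chol diet. It did not overlap between the diets and differed by 2.13 (standard error 0.33, adjusted p = 0.0236 from limma on every probe). A probe at chr3:115891967-115892026 was not well above background on any array.

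Selp, the selectin of platelets and activated endothelium, gave -2.55, -2.56 and -2.60 on normal chow, against -2.34, -1.61 and -1.56 on the high-Chol diet, again from 10 spots per array (chr1:164112910-164112969). Only the 2 arrays of slide 2 stood clearly apart, and high-Chol array 1 was 0.23 above the mean of normal chow. The difference of 0.73 (standard error 0.23) was not called (adjusted p = 0.158 from limma). Spots of this probe spread more within an array than those of Icam1, with an SD of 0.18 to 0.44 on the log2 scale, and the widest spread was on high-Chol array 2, where they read 135 to 330 units. The coding probe printed above was not well above background on any normal chow array and was so on all high-Chol arrays, at -4.66, -2.54 and -2.43. That is at least 2.29-fold higher, and the fitted difference of 1.98 was not called (standard error 0.67, adjusted p = 0.181 from limma on every probe). Here too high-Chol array 1 lay within the range of normal chow, from -6.19 to -4.66.

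Sele, the selectin that only activated endothelium makes, was not well above background on any array with its single probe (chr1:164020976-164021035). It read 2.33 to 5.41 intensity units on normal chow, against 6.57 to 18.3 on the high-Chol diet. Relative to the 75th percentile the diets overlapped, and the signal allows no fold.

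Selplg, the selectin ligand PSGL-1 of leukocytes, gave -0.41, -0.85 and -0.57 on normal chow, against 0.53, 0.86 and 0.61 on the high-Chol diet. The diets were apart by more than the spread within either, and the difference was 1.27 (standard error 0.18, adjusted p = 0.0167 from limma), or 2.42-fold. The coding probe printed above gave -2.09, -2.23 and -2.14 on normal chow, against -1.30, -0.99 and -1.09 on the high-Chol diet. Its normal chow values were within 0.13 of each other, and the difference was 1.03 (standard error 0.16, adjusted p = 0.0223 from limma on every probe).

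Of the 23 probes of these genes, 15 passed the filter, all of them read higher on the high-Chol diet, and 13 did so without overlap. Among genes with 6 values, 11.9% were higher without overlap, and the share over all probes was not computed. limma on every probe called 9 of the 15, beside 2.36% of all 23915 probes higher. Probes of 1 gene share its transcripts and are not independent measurements.

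**Figure D2:**
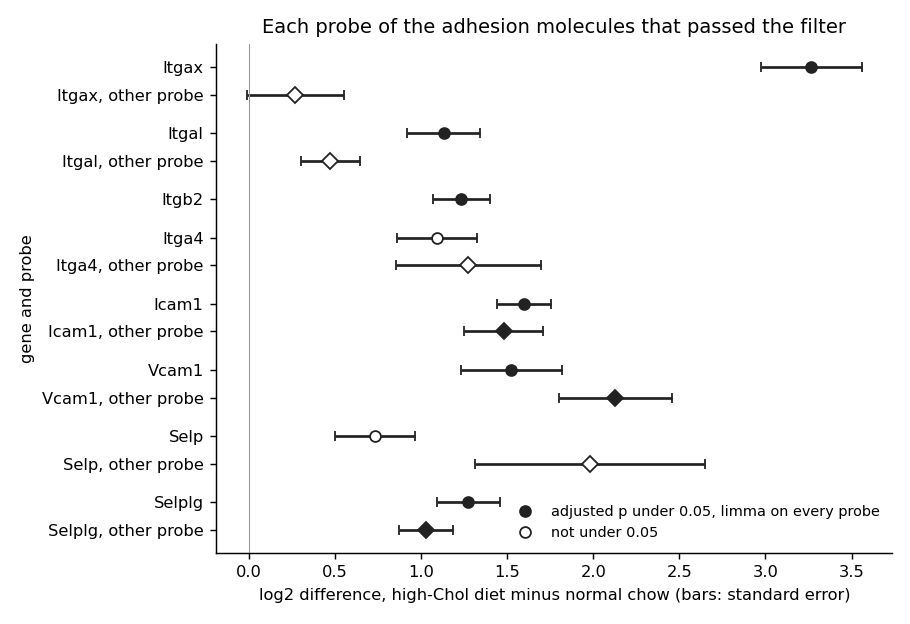
Log2 difference between the diets, high-Chol diet minus normal chow (horizontal axis), for the 15 probes that passed the filter, by gene. Bars are the standard error from limma, circles are the probe used for the gene, diamonds its other probe, and filled marks had an adjusted p under 0.05. Both probes of Icam1, Vcam1 and Selplg are filled, while those of Itgax lie at 3.27 and 0.27.

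The difference of Icam1 changed little with the processing, and those of the dim probes changed most. Icam1 was 1.35 to 1.68 and Itgb2 0.91 to 1.25 higher under the 5 other ways plotted below. Vcam1, at 1.12 to 1.62, varied more than these. With the normexp method as background correction, Itgax differed by 0.48, and Itga4 and Selp turned to -0.40 and -0.14. With that setting limma called 0 genes of all those tested, and 4 of these 8 were higher at an unadjusted p under 0.05, beside 1.6% of all genes. With median scaling, all genes shifted together by 0.23 downward and Itgal was no longer called (adjusted p = 0.0742 from limma).

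**Figure D3:**
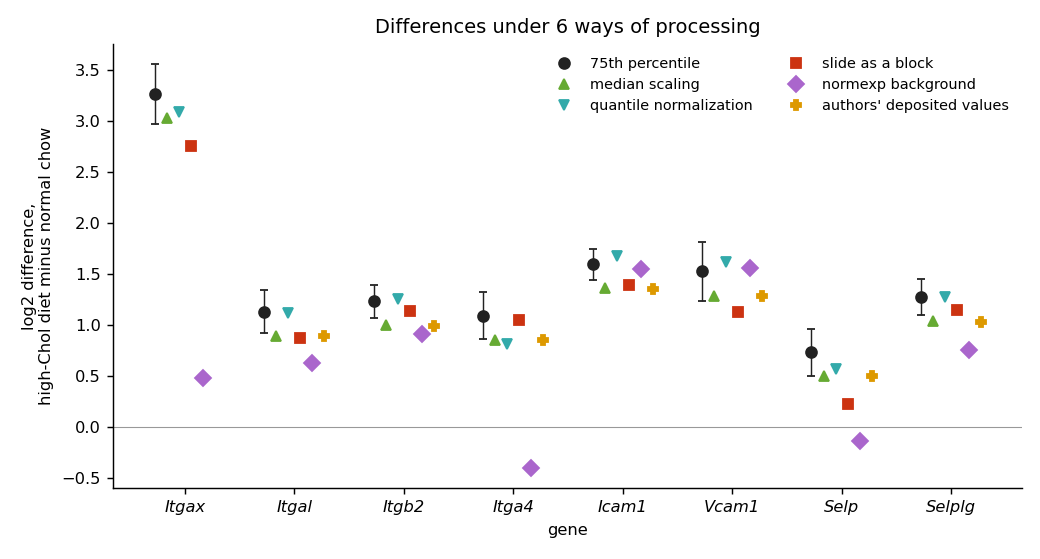
Log2 difference, high-Chol diet minus normal chow (vertical axis), of the 8 tested genes under 6 ways of processing. Black circles with standard errors are the values relative to the 75th percentile, and Itgax has no deposited value from the authors for its brighter probe. All marks lie above 0 except those of Itga4 and Selp with the normexp background.

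Ptprc, the pan-leukocyte surface protein CD45, was itself 1.46 higher on the high-Chol diet (standard error 0.24, adjusted p = 0.0290 from limma). The leukocyte genes were therefore set against Ptprc within each array, a ratio that does not depend on how the arrays are scaled. Relative to Ptprc, Itgb2 differed by -0.22 (exact permutation p = 0.4), Itga4 by -0.36 (exact permutation p = 0.3) and Selplg by -0.18 (exact permutation p = 0.6), and the diets overlapped for all 3 genes. Between the arrays of slide 1 alone all 3 turned, to 0.13, 0.04 and 0.13, and the normexp background gave -0.07, -1.38 and -0.23. Itgal was lower by 0.33 relative to Ptprc without overlap, at the smallest possible exact permutation p of 0.1. Its nearest arrays, normal chow array 3 and high-Chol array 1, were at -0.53 and -0.55, and the difference within slide 1 was -0.14. Itgax was higher by 1.81 relative to Ptprc, likewise without overlap and at the smallest exact permutation p of 0.1. Its ratios were -4.23, -3.44 and -3.59 on normal chow, against -2.01, -1.96 and -1.86 on the high-Chol diet. This rested on the brighter probe and on the background correction, since the mean of both Itgax probes gave 0.42 and the normexp background -0.51.

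Relative to the mean of the endothelial genes Pecam1, Cdh5, Tek and Kdr in the same array, Icam1 was higher by 1.37 and Vcam1 by 1.29, both without overlap and at the smallest possible exact permutation p of 0.1. Between the arrays of slide 1 alone, Icam1 was higher by 1.06 and Vcam1 by 0.79. The Icam1 ratios were 1.07, 1.19 and 1.26 on normal chow, against 2.23, 2.64 and 2.75 on the high-Chol diet. Selp differed by 0.50 relative to the endothelial genes, and the diets overlapped (exact permutation p = 0.3), with high-Chol array 1 at -2.52 inside the normal chow range. Within slide 1 its difference turned to -0.11. Macrophages and other cells of the liver can make Icam1 and Vcam1 too, and bulk RNA does not show which cell carried the signal. After Benjamini-Hochberg adjustment over the 10 ratios no p was under 0.25.

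**Figure D4:**
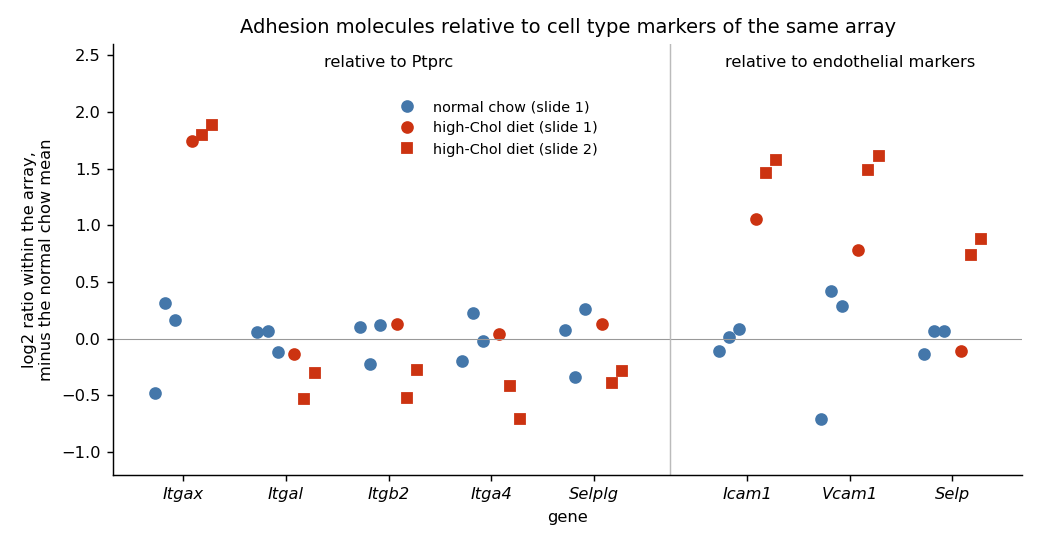
Log2 ratio within each array, minus its mean on normal chow (vertical axis), of 5 leukocyte genes to Ptprc and of 3 endothelial genes to the mean of Pecam1, Cdh5, Tek and Kdr, with 1 point per array. Itgax, Icam1 and Vcam1 are above 0 on all 3 high-Chol arrays, whereas the diets overlap for Itgb2, Itga4 and Selplg.

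Markers of the cells that could carry these genes were read in the same arrays, from lists chosen with earlier results of these data known. Genes said here and below to have risen or fallen are those that limma called. Over these lists and those of the adhesion pathway, limma called 40 genes, all higher. With slide as a block limma called 1 of the 40, Tnf, although all 40 stayed higher, and without normal chow array 2 it called 6. With the normexp background it called 0 and 7 of the 40 turned lower, and the methods' test after adjustment called 0. Of 10 pan-leukocyte markers, 10 were higher and 9 rose. The median difference was 1.45, with Lsp1 at 2.06, Tyrobp at 1.62, Cd53 at 1.62 and Coro1a at 1.57. With the normexp background the median was 1.08, and Lsp1, Tyrobp, Cd53 and Coro1a were at 0.24, 1.67, 0.89 and 1.22. The summed signal of the 10 markers, with the 75th percentile as 1, was 17.2 to 18.2 on normal chow, against 35.5 to 49.96 on the high-Chol diet. Of 12 macrophage and Kupffer cell markers, 11 were higher and 4 rose (Marco by 1.83, Cd68 by 1.74, Cd5l by 1.42 and C1qc by 0.93), and the median was 0.66. Emr1 (F4/80), with no value on high-Chol array 2, differed by 0.71 and was not called, and Cd163 was at -0.91. The summed macrophage signal was 135 to 151 on normal chow, against 291 to 337 on the high-Chol diet, a sum weighted by the brightest probes. Csf1r, Clec4f, Vsig4 and C1qa, measured on all arrays, differed by 0.28, 0.41, 0.58 and 0.59 and were not called.

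Of 11 tested monocyte and dendritic cell markers, 4 rose, and the median was 0.82, or 0.17 with the normexp background. These were Ccr2, the monocyte chemokine receptor, by 3.02 (well above background on 1 of 3 normal chow arrays, and 0.17 with the normexp background), and the antigen presentation genes H2-Aa, Cd74 and H2-Eb1 by 1.66, 1.37 and 1.35. None of the dendritic cell markers Clec9a, Xcr1, Flt3 and Zbtb46, at 0.40, 0.39, -0.26 and -0.57, was called. Cd209a was not well above background on any array, and the summed signal was 11.2 to 12.6 on normal chow, against 21.9 to 26.0 on the high-Chol diet. Of 6 tested neutrophil markers, 3 rose: S100a8 by 3.21, S100a9 by 2.90 and Retnlg, not well above background on any normal chow array, at least 3.76-fold (adjusted p = 0.0161 from limma). Ltf, well above background on 1 of 3 normal chow arrays, was at 2.18, and Csf3r and Mpo, measured on all arrays, were at 0.68 and 0.48, and none of them was called. With the normexp background S100a9 was at 2.62, S100a8 at 1.07 and Retnlg at -0.22, and the median of the list was 0.05 in place of 2.34, the mean of Ltf and Retnlg. Camp, Ngp and Elane, which the array names Ela2, were not well above background on any array. The summed neutrophil signal was 2.17 to 2.44 on normal chow, against 10.7 to 17.1 on the high-Chol diet, a sum weighted by the brightest probe, that of S100a9. Of 12 tested T and NK cell markers, Nkg7 alone was called, at 1.18, and 0 of 6 tested B cell markers were, with medians of 0.83 and 0.57 that turned to -0.25 and -0.42 with the normexp background, and with Ncr1 and Blk not well above background on any array. Their summed signals were 2.47 to 2.64 and 0.69 to 1.02 on normal chow, and 3.19 to 4.69 and 0.95 to 1.19 on the high-Chol diet. What share of the differences in the integrin genes went with these markers was not tested beyond the ratio to Ptprc.

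Endothelial markers lay close to the median of all genes. Of 13 tested, limma called 0 (the median was 0.06), with Cdh5 at 0.94 (adjusted p = 0.0720), Lyve1 at 0.41 and Kdr at -0.29. Their summed signal was 39.8 to 44.5 on normal chow, against 39.5 to 42.8 on the high-Chol diet. Pecam1 was at -2.13 ± 0.24 (SD, n = 3) and -2.05 ± 0.27. Platelet markers, which bear on Selp, had 4 tested genes of which 0 were called (median 0.29, or -0.44 with the normexp background), with Gp1ba and Gp6 not well above background on any array and summed signals of 0.59 to 1.52 and 0.80 to 1.30. Among 12 stellate cell and cholangiocyte markers, Col1a1, a collagen of stellate cells, rose by 1.04, and the median was -0.02. None of 9 hepatocyte markers was called, and the median was -0.30, or -0.00048 with the normexp background and -0.54 with median scaling. Alb, named Alb1 on the array, was at -0.34. The summed signal of the stellate cell and cholangiocyte list was 57.9 to 79.7 on normal chow, against 56.3 to 70.1 on the high-Chol diet. That of the hepatocyte list was 3132 to 3338 on normal chow, against 2527 to 2736 on the high-Chol diet.

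Other genes of the adhesion cascade were described from the same fit. Of 17 other integrin subunits tested, limma called 0, and the median was -0.14, which turned to 0.22 with slide as a block, with Itga6 at 0.86, Itgae at 0.69, Itgb3 at -0.83 and Itgb4 at -0.99. Itgb1, the usual partner of Itga4, differed by -0.14 and Itgb7, its other partner, by 0.57, both chosen after their values were seen, and neither was called. Itgb6, also chosen after its values were seen, was not well above background on any normal chow array, and its high-Chol mean was at least 3.96-fold higher, but it was not called (adjusted p = 0.0728 from limma, or 0.0333 with median scaling). Of 18 other adhesion molecules of the immunoglobulin type, Cd48, a leukocyte surface protein, rose by 1.56, and the median was 0.07 (-0.15 with the normexp background). Among 14 tested genes of the selectin pathway, 2 rose, Cd44, a hyaluronan receptor that also binds selectins, by 1.15 and Fut7, the fucosyltransferase that builds selectin ligands, by 1.06, or -0.02 with the normexp background. B4galt1 was at -0.53, and the median was 0.26, or -0.05 with the normexp background.

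Of 26 genes of integrin activation and signalling, 9 rose and 0 fell, with a median of 0.42, and limma called 0 of them with slide as a block, with the normexp background or without normal chow array 2. Those named by size are known mainly from blood cells: Cytip by 2.42, Plek, the platelet and leukocyte protein pleckstrin, by 1.76, Apbb1ip, the Rap1 effector RIAM, by 1.73, the Src family kinase Fgr by 1.42 and the adaptor Skap1, well above background on 2 of 3 normal chow arrays, by 1.30. With the normexp background Plek, Cytip, Fgr and Apbb1ip were at 0.72, 0.57, 0.55 and 0.11, and Skap1 turned to -0.41. At the other end Ptk2b was at -1.03 and Cyth1 at -0.44, neither called. The 10 ligands of leukocyte integrins outside the list, most of them plasma or matrix proteins, had a median of -0.40 (-0.15 after normexp, -0.13 with slide as a block), and limma called 0 of them. Cyr61 and Thy1 were at 1.11 and 0.82, and Fga and Fn1 at -0.72 and -0.62, or 0.10 and -0.09 with slide as a block. Where limma called 0 genes of a list, an unadjusted p under 0.05 was found for 6 other integrin subunits, 7 of these ligands, 2 B cell, 1 endothelial, 0 platelet and 2 hepatocyte markers. Over all genes tested 21.2% had such a p in either direction, and nothing is read from these counts.

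Of 15 tested inducers of endothelial adhesion molecules, 6 rose, with a median of 0.94, or 0.40 with the normexp background. Tnf, a cytokine that induces Icam1, Vcam1 and Sele in endothelium, was at least 3.74-fold higher (adjusted p = 0.00246 from limma) and not well above background on any normal chow array. Il1b, a cytokine with the same action, rose by 2.02, and Il1a, well above background on 2 of 3 normal chow arrays, by 1.83. Ifng, not well above background on any normal chow array, was at least 1.40-fold higher (adjusted p = 0.0112 from limma). With the normexp background Tnf, Ifng and Il1a turned to -0.19, -0.60 and -0.07, and Il1b was at 0.47. Tnfaip3, an NF-kB target that restrains the pathway, rose by 2.27, while the receptors Tnfrsf1a, Tnfrsf1b and Il1r1 were at 0.24, -0.18 and -0.88 and not called.

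**Figure D5:**
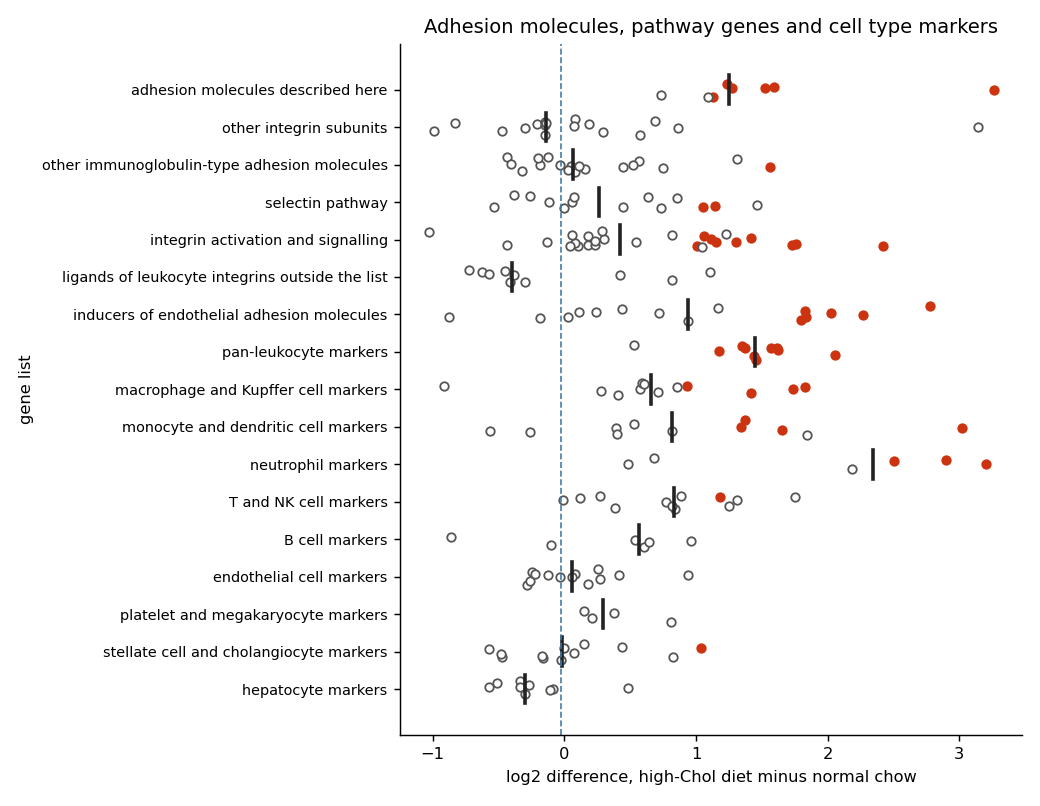
Log2 difference, high-Chol diet minus normal chow (horizontal axis), of each tested gene of the adhesion molecules and of 16 other lists. Filled points had an adjusted p under 0.05, black bars are list medians and the dashed line is the median of all genes. The medians of the adhesion molecules (1.25) and pan-leukocyte markers (1.45) lie to the right. That of neutrophil markers (2.34, or 0.05 with the normexp background) rests on Ltf and Retnlg, which were well above background on 1 and 0 normal chow arrays. Those of endothelial markers (0.06) and other integrin subunits (-0.14, or 0.22 with slide as a block) lie close to the line.

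The genes with the most similar values over the 6 arrays, among 14045 genes well above background on all of them, were found by the root mean square distance of log2 values after subtracting each gene's mean. For Itgb2 these were Pfkfb4, Plcg2 and Tbxas1 (distances 0.05, 0.06 and 0.07). For Icam1 they were Mical1, Pik3cd and Evl (0.06, 0.06 and 0.07), for Vcam1 BC089618, BC062650 and Anxa3 (0.18, 0.20 and 0.21), and for Itgax S100a8, Lgals3 and Clec7a (0.23, 0.29 and 0.36). The profiles of Itgax and Vcam1 thus had no neighbour as near as those of Itgb2 and Icam1. Itgam was left out, since its probes were near background.

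Promoters from 250 bases before to 50 after the start were at hand from RefSeq (GRCm38.p6) for 6 of the genes, Icam1, Itga4, Itgam, Itgax, Sele and Selp. The NF-kB consensus was found on neither strand of these 6, and in 8.46% of all 32851 promoters. GAGGAAG, a core of PU.1 sites, was in the Itgam promoter on both strands and in 13.6% of all promoters. The letters GGAAATTCC were searched after the Icam1 promoter had been viewed. They occur there from 153 bases before the start, and in 0.317% of all promoters on either strand. The stretch is shown because Icam1 rose with both of its probes, with the matched letters in capitals.
Icam1 promoter, chr9:21015737-21015856, plus strand, GRCm38.p6: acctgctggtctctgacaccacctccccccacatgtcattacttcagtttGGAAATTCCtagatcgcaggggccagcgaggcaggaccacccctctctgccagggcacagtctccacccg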

How the data were processed

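Liver RNA of apoE-KO mice was hybridized to one-colour Agilent whole mouse genome arrays, 3 per diet. The authors deposited the scanner output, in which Agilent Feature Extraction (9.5 for slide 1 and 9.1 for slide 2, per the file headers) gives a background-subtracted intensity per spot, not normalized between arrays. The authors also deposited log2 values, 1 per probe and diet, normalized in Gene Spring GX. They were used only as an alternative.

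Control spots (1639 per array) and outlier spots (75 to 196) were left out, spots of a probe were averaged, and the brightest probe that passed the filter stood for a gene. The high-Chol diet was set against normal chow with limma (version 3.58.1, R 4.3.3), by lmFit and eBayes (no covariate, Benjamini-Hochberg over all genes, threshold 0.05). A lower bound on a fold set the mean of the bright diet against, per dim array, the higher of the probe's signal and the dimmest probe well above background. Tables and plots used pandas and matplotlib. Simulated data were used to test this step. The number of arrays limits the precision.

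The 10 genes and the other 16 lists were chosen with earlier results of these data known. Of 218 genes in those lists, 214 were on the array. Named were the adhesion genes, Apoe and some markers, and per list up to 5 called genes and the 2 highest and 2 lowest measured on all arrays, or some of these; genes outside this rule were named after their values were seen. Alternatives were a normexp background (offset 50), median and quantile scaling, other filters and probe rules, slide as a block, leaving out each array, array weights, a trended and robust prior, and the methods' t-test.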

Additional observations from a re-analysis of the deposited data

How the results depend on the processing

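The other settings reused the same 6 arrays. Some of them, such as the methods' t-test and the trended and robust prior, kept the main difference by construction. A count over settings is therefore not independent support. Of 140 values of the 8 tested adhesion genes under other settings, 138 were higher on the high-Chol diet. Those that turned were Itga4 (-0.40) and Selp (-0.14) with the normexp background, which also turned the ratios of Itgax to Ptprc (-0.51) and of Selp (-0.23) and the unmeasured Sele (-0.90) to the endothelial genes. Within slide 1 the ratios of Itgb2 (0.13), Itga4 (0.04), Selplg (0.13) and Selp (-0.11) turned. The number called, 6, was 0 with the normexp background, 0 with slide as a block, 0 by the methods' t-test after Benjamini-Hochberg adjustment (8 without adjustment, where it called 8.40% of all genes higher) and 1, Itgax, with no filter on dim probes. The median difference of 1.25 was 0.69 with the normexp background. Leaving out 1 array at a time gave 1 to 8 calls. Without normal chow array 2 only Itgax was called, among 42 genes in all. Without high-Chol array 2, high-Chol array 3 or normal chow array 3 only Icam1 and Itgax were, among 105, 167 and 173 genes in all. Without normal chow array 1, Icam1, Itgax, Itgb2 and Selplg were called, among 262 genes in all. Calls thus fell over the whole array, from 450 genes higher and 38 lower in the main fit. Without high-Chol array 1 all 8 were called, together with 3075 genes in all, and diet and slide cannot then be told apart. The causes were not tested. The remaining settings gave 5 to 8 calls and medians of 0.99 to 1.33. The 8 calls came with array weights, where 3196 genes in all were called. High-Chol array 1, the only high-Chol array on slide 1, had the lowest weight there, 0.33, so that fit leaned on slide 2.

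No paired analysis was possible because the labels give the replicate numbers 1 to 3 to each diet as a whole and do not tie them to arrays. Signals near background limit what can be said of Itgam, Sele, Itga4 and the normal chow level of Itgax.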
